A study of Mus musculus with 3 samples.

Results

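CD8 alpha-beta T cells are described here in mouse brains that carried metastases of the mammary carcinoma line E0771. They were selected on measured transcripts and antibody tags, which left 426 CD8 T cells of the 12908 barcodes of 1 pooled capture. A barcode needed at least 500 genes, at most 15% mitochondrial UMIs (unique transcript molecules), at most 20000 UMIs, and 70% or more of its mouse hashtag counts from 1 hashtag. It also needed at least 2 of the 5 transcripts Cd3d, Cd3e, Cd3g, Trac and Trbc2, at least 1 UMI of Cd8a or Cd8b1, none of Cd4 or Foxp3, at most 3 of the macrophage gene Lyz2, and more CD8a than CD4 antibody tags. Because the cells were chosen by these measured values, the levels of the 10 gate genes and 2 tags are given as a description, and they entered no test.

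The mice were C57Bl/6 females, 2 to 3 months old, with E0771 cells delivered by carotid injection. Some received antibodies against the immune checkpoint proteins VISTA and PD-L1 on alternate days from day 3 after injection, and the others did not. The label of the transcript library gives 1 hemisphere for each of the 8 biological samples, while those of the antibody and hashtag libraries read 2 and 3. Immune cells were enriched on a Percoll density gradient, and each sample was stained with 35 antibodies and 1 hashtag before all were combined. No source used here says which hashtags marked treated brains, so all hashtag samples were kept apart and no treatment comparison was made. Nothing says that the hashtag samples came from separate animals. The p-values therefore measure how far the differences between cell groups varied from sample to sample, a spread that may be technical. Transcripts, antibody tags and hashtags were read from the same cells by CITE-seq, which counts oligonucleotide-tagged antibodies beside transcripts.

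CD8 T cells recognise peptides on MHC class I and kill the presenting cell with perforin and granzymes, and they secrete interferon gamma and chemokines. Naive and memory-like cells hold the transcription factors TCF-1 (Tcf7) and LEF1 and the lymph node homing receptor CCR7. Cells under lasting antigen exposure, as in tumours, take on a state called exhaustion, marked by inhibitory receptors such as PD-1 (Pdcd1), LAG-3 and TIM-3 (Havcr2). In the brain, CD8 T cells enter from the blood and some stay as resident cells.

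The barcode of the CD8a antibody carried the gate, beside that of the CD4 antibody that it was set against. Both are printed 5′ to 3′, with capitals marking the 12 of 15 bases at which they differ.
CD8a tag: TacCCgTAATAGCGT
CD4 tag: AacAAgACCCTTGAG
No other tag of the panel was closer to the CD8a tag than 8 bases. CD8 T cells carried a median of 84.5 CD8a tags, against 2 in conventional CD4 T cells and 1 in NK cells.

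The members held the CD3 and T cell receptor transcripts together, and most held both chains of the coreceptor. Cd8a (GRCm38.p6 chromosome 6, 71373427 to 71379171) was detected in 88.3% of them, and its neighbour Cd8b1 (71322788 to 71337492) in 93.0%. Both were detected in 346 cells, Cd8b1 alone in 50 and Cd8a alone in 30. Cd3e and Trac were each detected in 94.1%, and 421 of 426 cells held 4 or 5 of the 5 CD3 and receptor transcripts. Summed over the 4 marker genes, hashtag samples 5 to 8 held 2543 to 3479.7 CPM (counts per 1e+06 gene UMIs). Just inside the gate lay 18 cells with over 15000 UMIs, against 9 just outside with at most 25000, and 75 cells with 1 to 3 Lyz2 UMIs, against 2 with 4 to 6. There were 15 cells whose CD8a tags exceeded the CD4 tags by 1 to 10, and 13 cells were outside because they did not exceed them.

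Markers of other cells were also detected in the CD8 T cells. The 6 NK markers, all detected, summed to 9.26 to 295 CPM over hashtag samples 5 to 8, against 2223 to 3459.7 in NK cells. Of the 5 gamma-delta T markers all were detected, summing to 25.5 to 90.9 CPM, against 88.6 to 115 in NK cells, a range that sample 7 reached. In conventional CD4 T cells they summed to 0 to 21.4 CPM, below every CD8 value, with Tcrg-C1, Trdv4 and Cd163l1 at 0. One of the markers, Tcrg-C2, had 84 UMIs in CD8 T cells and 0 in NK cells. The B cell genes Cd79a and Ms4a1, the neutrophil gene Retnlg and the carcinoma genes Krt18, Krt19 and Cldn4 were at 0. All 10 myeloid markers were detected, summing to 823 to 2146 CPM in CD8 T cells and 376 to 2949 CPM in conventional CD4 T cells, ranges that overlapped. The 5 dendritic markers summed to 11.6 to 235 CPM in CD8 T cells, all detected, and to 64.3 to 132 CPM in conventional CD4 T cells, with Xcr1 and Clec9a at 0. The 5 include Ccr7, which naive T cells also hold. At least 3 UMIs of macrophage genes or of vascular genes were held by 28 CD8 T cells (6.57%), 9 CD4 T cells (6.04%) and 23 NK cells (5%). Their part in each result was not tested, and values without those barcodes are given where a call moved.

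The gated cells came mostly from 4 hashtag samples. Of the 12908 barcodes, 4871 passed the quality and hashtag limits, and 1026 of these were T cells by the CD3 rule. CD8 T cells numbered 0, 12, 12, 6, 120, 86, 50 and 140 in hashtag samples 1 to 8. They made up 8.43, 13.1, 7.02 and 12.0% of the passing cells of samples 5, 6, 7 and 8, and 3.15, 3.14 and 5.04% of those of samples 2, 3 and 4. Sample 1 had 0 of 35, with a 95% exact interval that reaches 10.0%. Samples 6 and 8 were the high ones, and their intervals (10.6 to 16.0% and 10.2 to 14.0%, 95% exact binomial) lay above those of samples 5 and 7 (7.04 to 10.0% and 5.26 to 9.15%). Such intervals cover counting error only. For each conventional CD4 T cell there were 2.07, 6.14, 1.79 and 3.59 CD8 T cells in samples 5, 6, 7 and 8, so sample 6 held most CD8 per CD4 T cells and the fewest CD4 T cells, 14. Summed CD8 T transcripts ranged from 341111 to 1150104 UMIs in these 4 samples, and the median cell held 5796.5 UMIs, against 4227 in CD4 T and 4246.5 in NK cells.

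**Figure D1:**
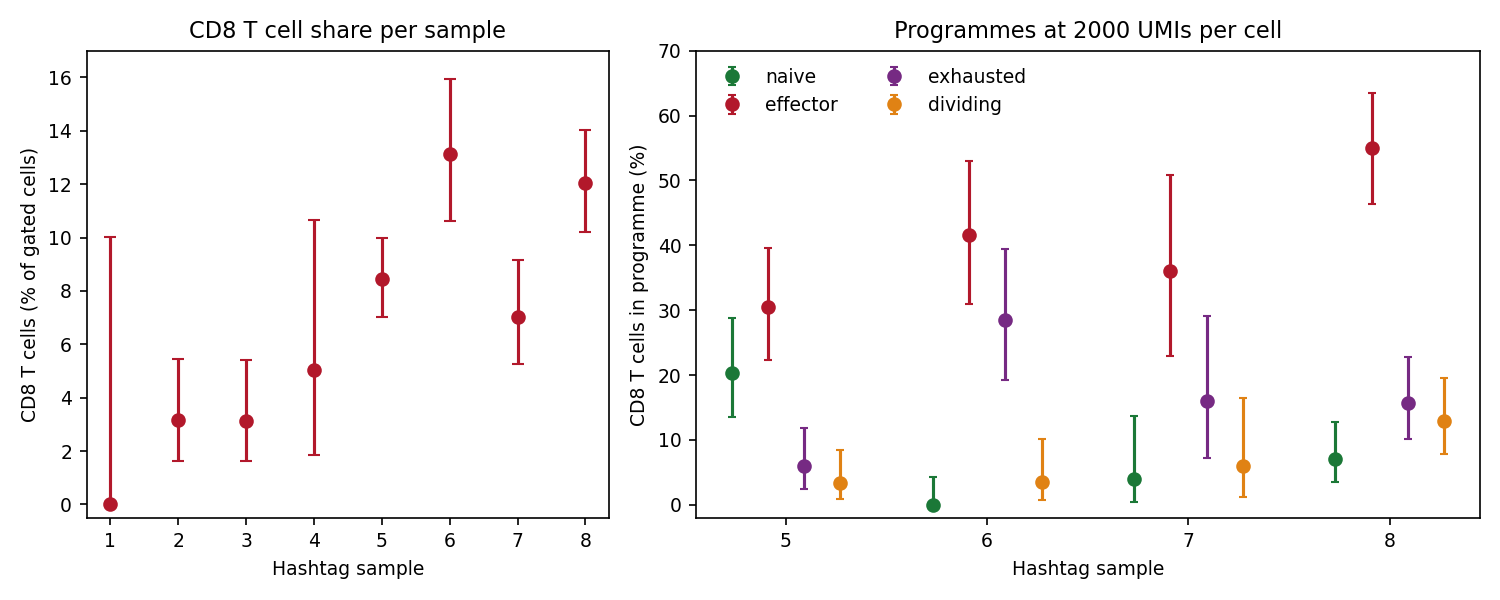
Left, CD8 T cells as a percentage of the quality-filtered, hashtagged cells in each of the 8 hashtag samples. Right, the percentage of CD8 T cells positive for each programme at 2000 UMIs per cell in hashtag samples 5 to 8, where effector shares run from 30.5 to 55% and sample 6 has 0 naive cells. Points are shares and bars 95% exact binomial intervals.

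The effector programme was the most frequent of the 4 in CD8 T cells. To compare cells of unequal depth, each cell was thinned to 2000 UMIs, which left out 4 shallower CD8 T cells. A cell was called positive with at least 2 of 4 genes and negative with 0 of 4. Of 422 cells, 41.5% (36.7 to 46.3%) were positive for the effector genes Gzma, Gzmb, Prf1 and Ifng. The exhausted genes Pdcd1, Lag3, Havcr2 and Tigit gave 14.9% (11.7 to 18.7%). The 4 naive genes, Ccr7, Lef1 and Tcf7 among them, gave 9.72% (7.06 to 12.9%), and the dividing genes Mki67, Top2a, Cdk1 and Birc5 gave 6.64% (4.45 to 9.45%). None of the 4 programmes was called in 40.8%. Without thinning the shares were 58.0, 43.7, 23.2 and 14.3% in the same order, so the absolute shares depend on depth.

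The exhausted and effector shares stood apart from those of neighbouring lymphocytes at the same depth. Conventional CD4 T cells were 4.11% effector and 3.42% exhausted positive. NK cells were 87.6% effector and 0.221% exhausted positive. In 423 endothelial cells with no CD3 or Ptprc transcript, which should lack both programmes, 0 were positive for either (exact interval up to 0.868%). Dividing positive were 0.709% of them. The median endothelial cell held 5688 UMIs before thinning. The naive share has a higher floor: 6.62% of the endothelial cells were called positive, through Lef1 (39.5% of them) and Tcf7 (12.5%), while Ccr7 was in 0 of 423. Conventional CD4 T cells were 13.0% (8.02 to 19.6%) and NK cells 12.6% (9.69 to 16.0%) naive positive. The CD8 naive share of 9.72% therefore did not stand above those of the neighbouring lymphocytes. In CD8 T cells Ccr7 was detected in 11.1%.

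Single genes carried the programmes unequally. Gzmb was detected in 57.8% of thinned CD8 T cells, Prf1 in 31.3%, Gzma in 22.5% and Ifng in 18.5%. Among the inhibitory receptors Pdcd1 was detected in 33.9%, Lag3 in 23.0%, Havcr2 in 10.4% and Tigit in 1.90%. The corresponding NK shares were 0.442% for Pdcd1 and 76.3% for Gzmb, and the CD4 T shares 23.3% and 15.8%.

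The programmes were spread unevenly over the hashtag samples. In samples 5, 6, 7 and 8 the effector share was 30.5, 41.7, 36 and 55%, the exhausted share 5.93, 28.6, 16 and 15.7%, the naive share 20.3, 0, 4 and 7.14% and the dividing share 3.39, 3.57, 6 and 12.9%. Sample 5 was highest for the naive programme (13.5 to 28.7%) and low for the exhausted one (2.42 to 11.8%). Sample 6 was the reverse, with 0 of 84 naive cells (exact interval up to 4.30%) and the highest exhausted share (19.2 to 39.5%). Sample 8 held the highest effector share (46.4 to 63.4%) and the highest dividing share (7.8 to 19.6%). Its median CD8 T cell held 7171 UMIs before thinning, against 4591 in sample 6.

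Over all samples together, effector and exhausted genes were often found in the same cells, and naive genes mostly in others. Of 63 exhausted-positive cells, 52.4% (39.4 to 65.1%) were also effector positive, against 34.0% (27.5 to 41.0%) of the 203 exhausted-negative cells. Of 41 naive-positive cells 12.2% (4.08 to 26.2%) were effector positive, against 49.7% (43.7 to 55.6%) of 288 naive-negative cells. Dividing-positive cells were effector positive in 60.7% (40.6 to 78.5%) of 28, and dividing-negative cells in 38.6% (33.3 to 44.1%) of 324. Just 3 dividing-positive cells were exhausted positive, and none was naive positive. These cells are not replicates, so the overlaps carry no test, and the intervals of the exhausted and of the dividing comparison overlap. The shares are pooled over hashtag samples of unlike make-up. Sample 5, with an effector share of 30.5%, gave 7 exhausted-positive and 76 exhausted-negative cells. Overlaps within single samples were not taken. Before thinning, the dividing-positive cells held a median of 11647 UMIs, against 5581.5 in dividing-negative ones.

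Against conventional CD4 T cells of the same hashtag sample, CD8 T cells carried more cytotoxic and chemokine transcripts and fewer helper ones. Counts were summed per sample and class and compared in samples 5, 7 and 8, the samples with at least 20 cells of both. The test was edgeR's quasi-likelihood test with the hashtag sample as a block. Of 4626 genes tested 129 passed an adjusted p of 0.05 (2.79%), of which 65 were higher in CD8 T cells (1.41% of those tested) and 64 lower (1.38%). The CD4 class was gated in mirror image, with Foxp3 at 0, and the 3 samples held 310 CD8 and 125 CD4 T cells. Groups did not overlap for 23.4% of all genes. Of 60 passing genes followed by name through the other settings, 31 kept their direction and their call in every setting that tested them.

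Of the 30 effector and cytotoxic genes listed, 23 were tested, 13 were higher in CD8 T cells and none passed as lower. Their median log2 fold change was 1.97, against 0.02 over all genes. Prf1 (perforin, which lets granzymes into the target cell) had 156, 106 and 502 CPM in CD8 T cells of samples 5, 7 and 8, against 6.72, 0 and 5.36 CPM in CD4 T cells. Every CD8 value exceeded every CD4 value, but the CD4 T cells held just 3 Prf1 UMIs in all (log2 fold change 5.66, SE 0.42, adjusted p = 0.000134). The ratio of summed CPM was 66.1 (95% counting interval 22.5 to 321). The fitted log2 value of a gene with so few UMIs depends on the prior count of the fit. Gzmb (granzyme B, a protease of the killing granule) had 839.7, 964 and 1818 CPM in CD8 T cells and 144, 253 and 231 CPM in CD4 T cells (log2 fold change 2.59, SE 0.20, adjusted p = 0.000185), highest in sample 8 within CD8 T cells. Nkg7, a granule membrane protein, had 2151, 2791 and 3613 CPM in CD8 T cells and 668, 821 and 778 CPM in CD4 T cells (log2 fold change 1.97, SE 0.14, adjusted p = 0.000134). Ctsw (cathepsin W), Cst7 (cystatin F) and the granzyme Gzmk were higher too, at log2 2.07, 1.70 and 1.69. Cst7 did not pass without sample 8 (adjusted p = 0.0964) and Gzmk did not without sample 7 (0.152). Gzma (log2 1.87, adjusted p = 0.107) and Ifng (log2 2.57, adjusted p = 0.154) did not pass. Gzma had 826 CPM in the CD4 T cells of sample 8 and passed without that sample, at log2 3.28 (adjusted p = 0.00824). Ifng passed without sample 7, at log2 4.13 (adjusted p = 0.000394).

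The chemokine genes Xcl1, Ccl3, Ccl4 and Ccl5 were also higher in CD8 T cells. Xcl1, whose product attracts the cross-presenting dendritic cells that bear XCR1, had 884, 349 and 829 CPM in CD8 T cells, against 3.36, 0 and 0 CPM in CD4 T cells (log2 fold change 8.73, SE 0.40, adjusted p = 6.56e-06). This was 1771 UMIs against 1, a ratio of 477 (counting interval 85.5 to 18850.4). Ccl4 and Ccl3 encode inflammatory chemokines that draw in T cells and macrophages. Ccl4 had 2184, 487 and 2239 CPM in CD8 T cells and 60.4, 46 and 69.7 CPM in CD4 T cells (log2 fold change 4.91, SE 0.27, adjusted p = 1.93e-05). Ccl3 had 846, 108 and 842 CPM in CD8 T cells and 10.1, 69.1 and 5.36 CPM in CD4 T cells (log2 fold change 4.81, SE 0.78, adjusted p = 0.00899), and without sample 8 its adjusted p was 0.160. Among samples 5, 7 and 8, sample 7 was the low one for Xcl1, Ccl4 and Ccl3 in CD8 T cells. Ccl5, abundant in both classes, had 8071, 12919.5 and 7873 CPM in CD8 T cells and 1689, 1166 and 2413 CPM in CD4 T cells (log2 fold change 2.52, SE 0.28, adjusted p = 0.00087).

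The transcription factor genes Eomes and Zeb2 of the effector list were higher as well. That list also holds Tbx21, Runx3, Prdm1, Id2 and Hopx, whose values in this comparison are not given here. Eomes, a T-box factor of effector and exhausted CD8 T cells, had 50.6, 82.1 and 28.7 CPM in CD8 T cells and 3.36, 0 and 5.36 CPM in CD4 T cells (log2 fold change 3.93, SE 0.66, adjusted p = 0.0115), with 101 UMIs against 2 (ratio 13.6, counting interval 3.67 to 114). Its adjusted p was 0.0540 without sample 7. Zeb2, a repressor of memory genes in effector cells, had 114, 85 and 139 CPM in CD8 T cells and 13.4, 30.7 and 26.8 CPM in CD4 T cells (log2 fold change 2.48, SE 0.34, adjusted p = 0.00365), and its adjusted p was 0.0561 without sample 8.

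**Figure D2:**
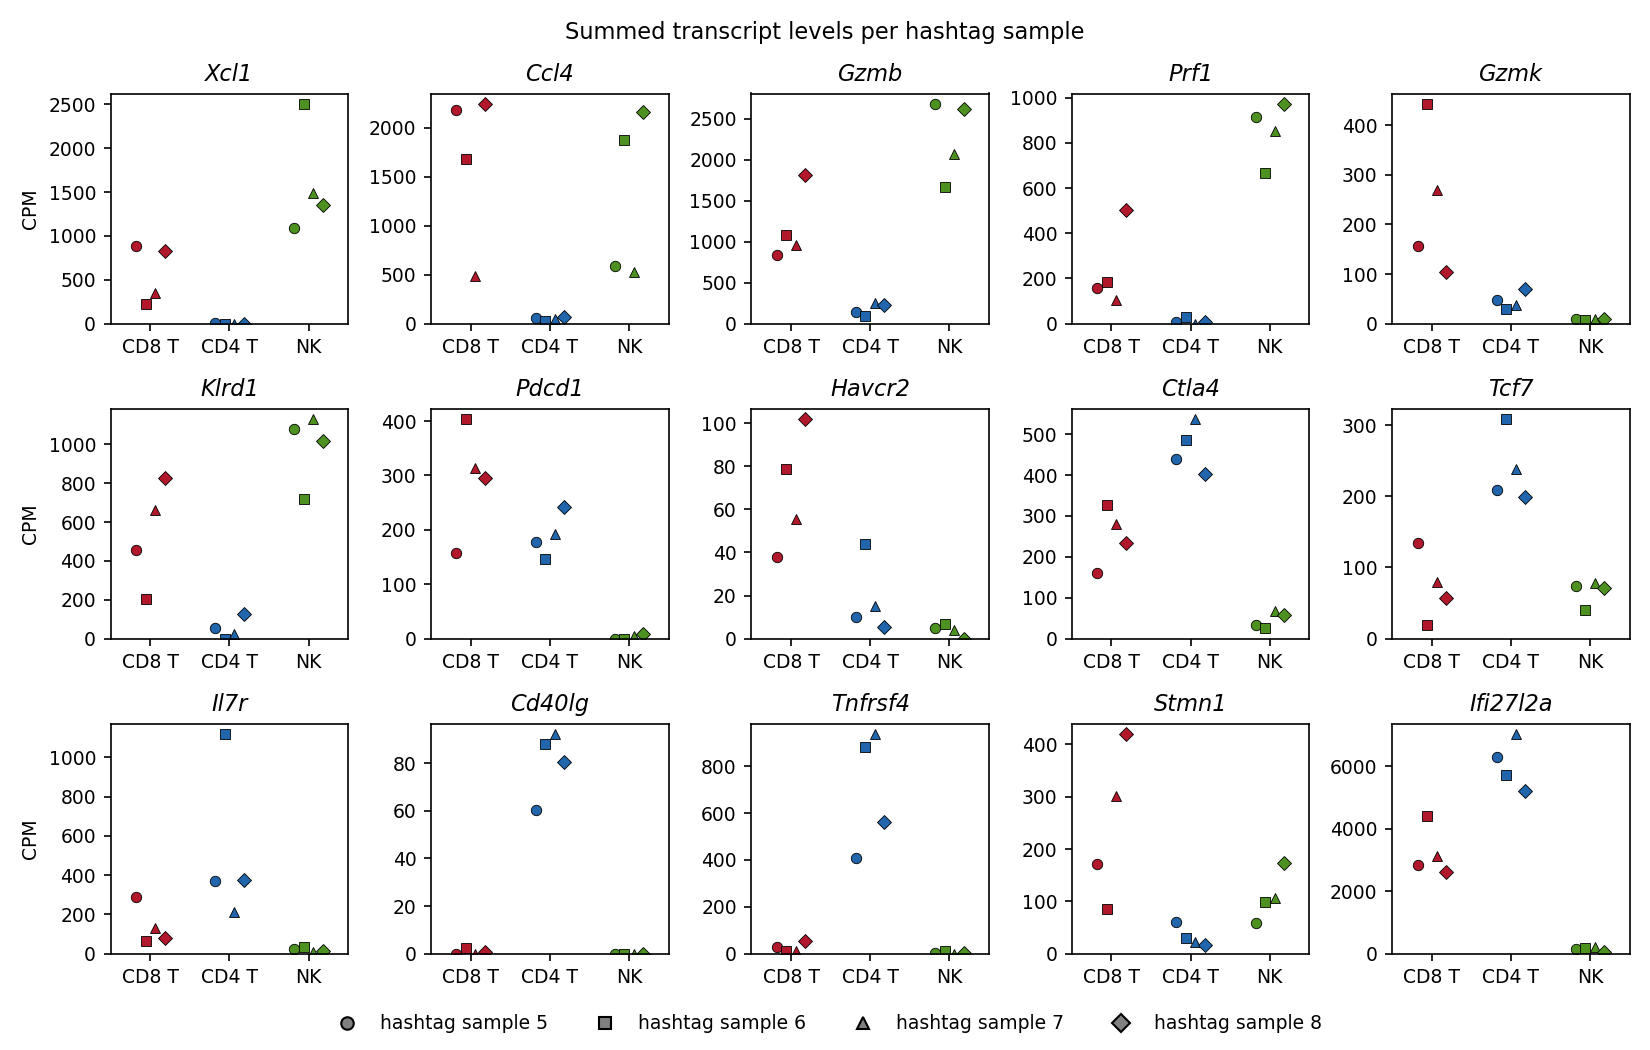
Summed transcript levels (CPM) of 15 genes in CD8 T, conventional CD4 T and NK cells, 1 point per hashtag sample (5 to 8), on linear axes that start at 0. Xcl1, Ccl4 and Prf1 are at 0 to 69.7 CPM in CD4 T cells and above 100 CPM in both other classes, Pdcd1 is at 0 to 9.31 CPM in NK cells, and Cd40lg and Tnfrsf4 stand out in CD4 T cells. The 14 CD4 T cells of sample 6 are drawn but entered no test.

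NK cell receptors were higher in CD8 T cells throughout: all 7 tested genes of that list of 11 passed. Their median log2 fold change was 4.61, or 4.22 with Klra7, which had 0 UMIs in CD4 T cells, placed at its bound. Klrd1 (CD94, partner chain of the NKG2 receptors) had 454, 659.6 and 825 CPM in CD8 T cells, against 53.7, 23 and 129 CPM in CD4 T cells (log2 fold change 3.27, SE 0.29, adjusted p = 0.000374). Klrc1 (the inhibitory NKG2A) had 142, 199 and 265 CPM in CD8 T cells and 0, 0 and 26.8 CPM in CD4 T cells (log2 fold change 4.61, SE 0.53, adjusted p = 0.00113). Klrk1 (the activating NKG2D) was higher at log2 2.75 and Klre1 at 4.22. Klrc2 was at 228 UMIs against 1 (ratio 61.4, counting interval 10.9 to 2436) and Cd160 at 210 against 2 (ratio 28.3, 7.73 to 235). Klra7 (a Ly49 receptor) was at least 10.9-fold higher, taking the floor of 3 counts over the CD4 T cells, with 75.9, 8.79 and 50.4 CPM in CD8 T cells. DESeq2 did not call Klra7 (adjusted p = 0.496) or Klrc1 (0.0605). Klre1 is also 1 of the 6 NK lineage markers, which summed to 9.26 to 295 CPM in CD8 T cells and 0 to 21.4 CPM in CD4 T cells.

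Of 16 tested inhibitory and exhaustion genes, 4 were higher in CD8 T cells and 1 lower, with a list median of 0.32 (log2). Rgs16, a brake on G protein signalling, had 118, 117 and 346 CPM in CD8 T cells, against 13.4, 7.67 and 21.4 CPM in CD4 T cells (log2 fold change 3.71, SE 0.31, adjusted p = 0.000296). Havcr2 (TIM-3) had 37.9, 55.7 and 102 CPM in CD8 T cells and 10.1, 15.3 and 5.36 CPM in CD4 T cells (log2 fold change 2.66, SE 0.49, adjusted p = 0.0186). Lag3, which binds MHC class II, had 104, 117 and 249 CPM in CD8 T cells and 10.1, 92.1 and 21.4 CPM in CD4 T cells (log2 fold change 2.28, SE 0.50, adjusted p = 0.0427). Without sample 8, the highest for both receptors, the adjusted p was 0.215 for Havcr2 and 0.298 for Lag3. The nuclear receptor gene Nr4a2 was higher at log2 1.45 (adjusted p = 0.00505).

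The best known checkpoint receptors did not follow that pattern. Ctla4 was lower in CD8 T cells, with 159, 281 and 233 CPM, against 439.9, 537 and 402 CPM in CD4 T cells (log2 fold change -0.99, SE 0.18, adjusted p = 0.0183). It missed the threshold without any 1 of the 3 samples, at adjusted p 0.0527, 0.0566 and 0.0666 without samples 5, 7 and 8. Pdcd1 (PD-1) had 158, 314 and 295 CPM in CD8 T cells and 178, 192 and 241 CPM in CD4 T cells, which overlapped (log2 fold change 0.32, SE 0.21, adjusted p = 0.49). Tox, a factor of the exhausted state, had 105, 138 and 223 CPM in CD8 T cells and 60.4, 76.7 and 145 CPM in CD4 T cells (log2 fold change 0.80, SE 0.21, adjusted p = 0.0865). Tox passed at log2 0.87 (adjusted p = 0.0208) without the barcodes that held macrophage or vascular UMIs.

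Cell cycle genes leaned towards CD8 T cells: 4 of 16 tested dividing genes were higher and none passed as lower, with a median log2 fold change of 1.55. Stmn1 (stathmin, a microtubule regulator) had 172, 302 and 420.0 CPM in CD8 T cells and 60.4, 23 and 16.1 CPM in CD4 T cells (log2 fold change 2.93, SE 0.44, adjusted p = 0.00636). Pclaf, a binding partner of the replication clamp, had 80.9, 208 and 229.5 CPM in CD8 T cells and 33.6, 0 and 10.7 CPM in CD4 T cells (log2 fold change 3.03, SE 0.55, adjusted p = 0.0181). Mcm3 and Mcm6, subunits of the replicative helicase, were higher at log2 2.13 and 1.22. All 4 missed the threshold without sample 8, where CD8 T cells were highest for each, at adjusted p 0.0650, 0.210, 0.220 and 0.284. With the gate at 10000 UMIs, Pclaf (0.0562), Mcm3 (0.211) and Mcm6 (0.241) missed it too.

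The naive and memory list split. Of 13 tested genes 3 were higher in CD8 T cells and 1 lower, with a median of -0.40 (log2). Ly6c2, a Ly6C protein of memory and activated CD8 T cells, had 1909.7, 1287 and 824 CPM in CD8 T cells and 265, 322 and 279 CPM in CD4 T cells (log2 fold change 2.25, SE 0.24, adjusted p = 0.00087). Ly6c2 and its neighbour Ly6c1 are near-identical, as are members of the Klra and Klrc clusters, so the counts of Ly6c2, Klra7 and Klrc2 are uncertain. Tcf7 had 134, 79.2 and 56.5 CPM in CD8 T cells and 208, 238 and 198 CPM in CD4 T cells (log2 fold change -1.19, SE 0.27, adjusted p = 0.0483). It did not pass without sample 7 (adjusted p = 0.181) or sample 8 (0.284). Ccr7 (log2 1.12, adjusted p = 0.0427) and Dapl1 (log2 2.38, adjusted p = 0.0495) were higher, and each missed the threshold without any 1 of the samples, at adjusted p 0.161, 0.0514 and 0.202 for Ccr7 and 0.0698, 0.131 and 0.0624 for Dapl1 without samples 5, 7 and 8. With classes of at least 10 cells, which adds sample 6, Ccr7 was at log2 0.61 (adjusted p = 0.677) and Dapl1 at log2 0.41 (0.911). Il7r, the IL-7 receptor of resting T cells, had 288, 132 and 80 CPM in CD8 T cells and 373, 215 and 375 CPM in CD4 T cells and did not pass (log2 fold change -1.01, SE 0.34, adjusted p = 0.159), but did without sample 5, at log2 -1.53 (adjusted p = 0.0132).

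**Figure D3:**
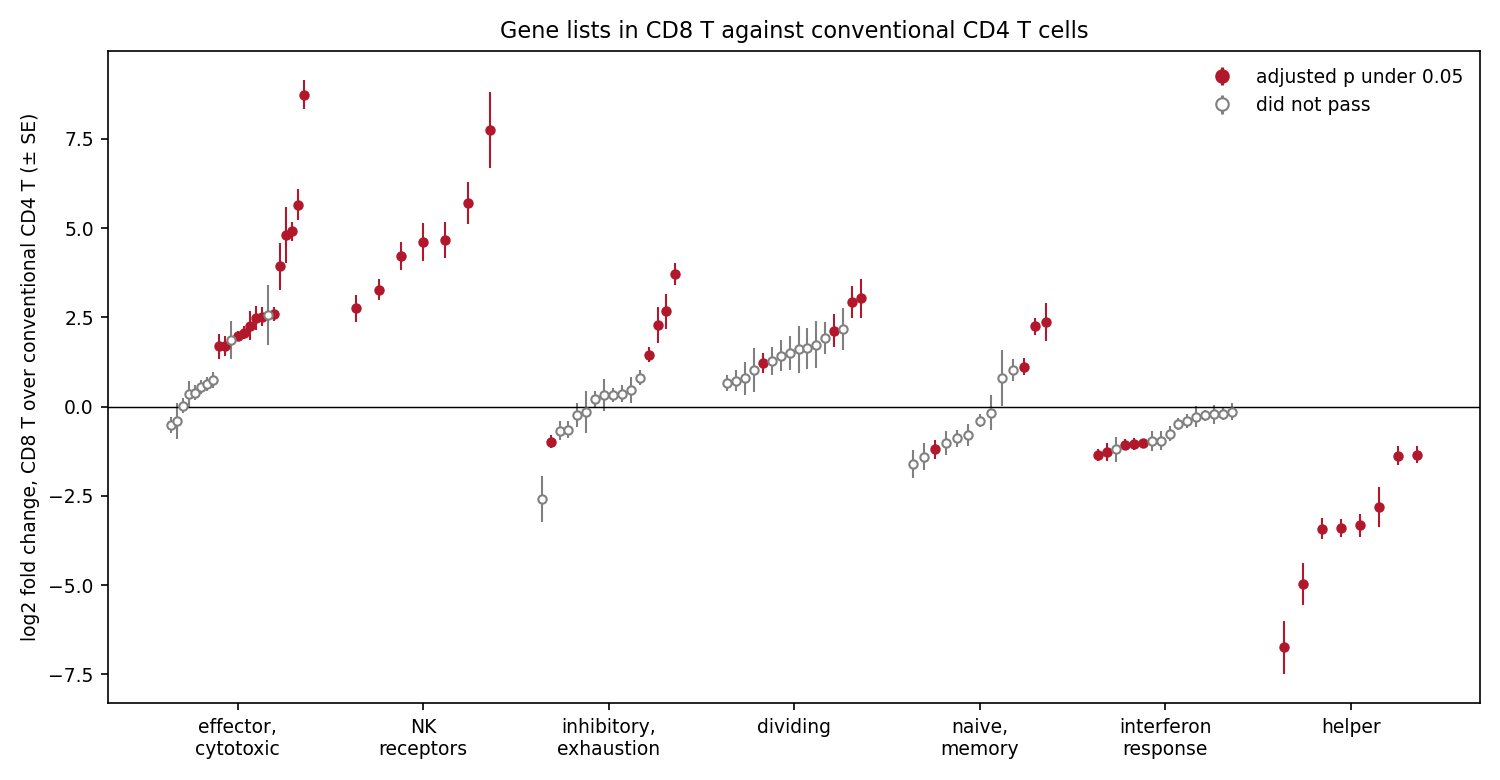
Log2 fold change, CD8 T over conventional CD4 T cells, with its SE, for the tested genes of 7 lists, ordered by value within each list. Filled points passed an adjusted p of 0.05: all 7 NK receptor genes are above 0, all 8 helper genes below 0, and 13 of 23 effector genes passed as higher. Values of genes with 0 to 3 UMIs in a class depend on the prior count.

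Helper genes were lower in CD8 T cells without exception among the 8 tested of 14 listed, with a median log2 fold change of -3.36. Cd40lg (CD40 ligand, by which helper cells license B cells and dendritic cells) was at 0, 0 and 0.869 CPM in CD8 T cells, against 60.4, 92.1 and 80.4 CPM in CD4 T cells (log2 fold change -6.74, SE 0.74, adjusted p = 0.00087). That was 1 UMI against 45, a ratio of 0.00599 (counting interval 0.000148 to 0.0351). Il2 had 2.53, 2.93 and 1.74 CPM in CD8 T cells and 36.9, 429.7 and 16.1 CPM in CD4 T cells, where sample 7 was far above the others (log2 fold change -4.97, SE 0.60, adjusted p = 0.00155). Maf, a factor of helper cytokine expression, was lower at log2 -3.40 and Izumo1r (folate receptor 4) at -3.33. Foxp3 was at 0 in the CD4 class by its gate, but the 3 regulatory T markers still summed to 102 to 228 CPM in CD8 T cells and 324 to 407 CPM in CD4 T cells, from Ikzf2 and Il2ra.

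Some costimulatory receptor and interferon response genes were also lower in CD8 T cells. Tnfrsf4 (OX40) had 26.6, 11.7 and 55.6 CPM in CD8 T cells and 409.7, 936 and 563 CPM in CD4 T cells (log2 fold change -4.03, SE 0.37, adjusted p = 0.000391). Tnfrsf18 (GITR) and Icos were lower at log2 -1.78 and -1.23, and these were the 3 of 14 costimulation and cytokine receptor genes that passed. Of 16 interferon response genes, 5 were lower and none passed as higher, with a median of -0.86 (log2). Ifi27l2a, the most abundant of them, had 2840.5, 3146 and 2633 CPM in CD8 T cells and 6317, 7028 and 5212 CPM in CD4 T cells (log2 fold change -1.02, SE 0.11, adjusted p = 0.000962). Ifit1 was lower at log2 -1.36, Isg15 at -1.04, Ly6a at -1.07 and Rsad2 at -1.28. Without sample 7 the adjusted p was 0.0782 for Isg15, 0.0583 for Ly6a and 0.0953 for Rsad2, and Rsad2 also missed without sample 5 (0.0518). With classes of at least 10 cells 3 of the 5 did not pass, namely Ifit1 (log2 -0.95, adjusted p = 0.114), Isg15 (-0.73, 0.125) and Rsad2 (-0.76, 0.395).

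The remaining lists held few calls. Cxcr3, the receptor that guides T cells to interferon-induced chemokines, was the 1 of 12 trafficking genes that passed, at 111, 117 and 64.3 CPM in CD8 T cells and 262, 246 and 273 CPM in CD4 T cells (log2 fold change -1.40, SE 0.24, adjusted p = 0.0135), with an adjusted p of 0.0887 without sample 8. Among 14 receptor signalling genes, Cd5 (log2 -1.29) and Cd247 (log2 -1.15) were lower, Cd247 not without sample 7 (adjusted p = 0.0514) or 8 (0.195). None of 6 tissue residency genes and none of 10 glycolysis genes passed. At an unadjusted p under 0.05, 5 and 3 of them did. Of 8 stress and immediate early genes Egr1 was higher (log2 1.17) and Junb lower (-0.73). Egr1 missed the threshold without any 1 of samples 5, 7 and 8 (adjusted p = 0.191, 0.176 and 0.200), and Junb without sample 7 (0.249) or 8 (0.268).

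Outside the lists, the genes with the strongest differences included one known from neurons. Nrgn (neurogranin, a calmodulin-binding protein) had 106, 93.8 and 147 CPM in CD8 T cells and 0 UMIs in CD4 T cells, at least 25.6-fold higher in CD8 T cells (adjusted p = 0.00087). Its 285 UMIs lay in 50 of 310 CD8 T cells, with 8.77% in the top cell, and NK cells held 68.2, 86.6 and 78.2 CPM in samples 5, 7 and 8. Ier5l (log2 3.11), Slamf7, a receptor of cytotoxic lymphocytes (2.76), and Zbtb32, a transcriptional repressor (118 UMIs against 2, ratio 15.9, counting interval 4.30 to 133), were higher as well. Without sample 8 Slamf7 (adjusted p = 0.0666) and Zbtb32 (0.111) missed the threshold. Slfn5 (-2.27), Ifi204 (-2.74), Iigp1 (-2.29) and Ass1, an enzyme of arginine synthesis (-2.45), were lower. Acta2 and Tagln, smooth muscle genes, also passed as higher, but 89.2 and 89.6% of their CD8 UMIs came from 1 barcode each, and DESeq2 called neither (adjusted p = 0.571 and 0.478). C1qb, a complement gene of macrophages, passed with 40.1% of its CD8 UMIs in 1 barcode, and was not among the tested genes once barcodes with macrophage UMIs were left out. DESeq2 also did not call 12 other genes described above as passing. Its adjusted p was 0.0646 for Eomes, 0.107 for Havcr2, 0.0638 for Tcf7, 0.0619 for Dapl1, 0.321 for Ccr7 and 0.0592 for Rsad2. It was 0.104 for Mcm3, 0.380 for Mcm6, 0.130 for Pclaf, 0.0619 for Cd247, 0.673 for Egr1 and 0.0695 for Zbtb32.

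At the surface, none of 30 antibody tags passed between CD8 and CD4 T cells (0%), and 4 had an unadjusted p under 0.05. The tag barcodes of those 4 and of PD-1, which the programmes refer to, are printed 5′ to 3′ without capitals because no part of them is compared.
CD86 tag: ctggatttgtgtatc
CD11c tag: gttatggacgcttgc
CD38 tag: cgtatccgtctccta
CD3 tag: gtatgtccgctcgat
PD-1 tag: gaaagtcaaagcact
The CD86 tag (CD86 is a ligand of CD28 and CTLA-4) averaged 35.1, 57.1 and 56.7 per CD8 T cell in samples 5, 7 and 8, against 17, 18.1 and 14.7 per CD4 T cell (log2 fold change 1.56, SE 0.29, adjusted p = 0.107). Its mean in NK cells was 4.35, 4.47 and 3.53. CD8 T cells were above CD4 T cells in all 3 samples without overlap, as was so for 23.3% of the tags in one direction or the other. The call was made in 5 other settings, at adjusted p 0.000254 without sample 5 and 0.0199 with classes of at least 10 cells. The Cd86 transcript did not follow, with 36.7, 29.3 and 47.8 CPM in CD8 T cells and 47, 38.4 and 32.2 CPM in CD4 T cells (log2 fold change 0.03, SE 0.35, adjusted p = 0.987).

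The CD38 tag (an NAD-consuming surface enzyme) averaged 33.7, 64.9 and 66.6 per CD8 T cell and 32, 16.5 and 25.7 per CD4 T cell (log2 fold change 1.16, SE 0.43, adjusted p = 0.237). Sample 5 showed almost no difference, and without it the log2 fold change was 1.39 (adjusted p = 0.000555). The CD11c tag (an integrin of myeloid and activated cytotoxic cells) averaged 11.9, 9.44 and 11.9 per CD8 T cell and 5.24, 1.36 and 6.59 per CD4 T cell (log2 fold change 1.56, SE 0.38, adjusted p = 0.112). CD3 was the lower one of the 4 tags with an unadjusted p under 0.05. It averaged 34.7, 17.8 and 30 per CD8 T cell and 60.4, 46.6 and 65.7 per CD4 T cell (log2 fold change -1.10, SE 0.23, adjusted p = 0.107). Without sample 5, CD11c (adjusted p = 0.000254) and CD3 (0.000254) passed as well. The 5 dendritic markers summed to 235, 182 and 102 CPM in CD8 T cells of samples 5, 7 and 8, against 87.3, 123 and 64.3 CPM in CD4 T cells. These sums were higher in CD8 T cells of all 3 samples, but the 5 markers include Ccr7, which is also a gene of the naive programme. Ccr7 alone was at 168, 222 and 129 CPM in the dividing-negative CD8 T cells of samples 5, 7 and 8. Those cells are a subset of the CD8 T cells, so these values cannot be set against the sums. With Ccr7 among the markers, the sums do not separate dendritic from T cell transcripts. Their part in the CD86 and CD11c tag values was not tested. The PD-1 tag averaged 16.9, 11.5 and 14.2 per CD8 T cell and 17.5, 7.93 and 9.1 per CD4 T cell, which overlapped. The CD44 tag was lower in CD8 T cells of all 3 samples (log2 fold change -0.45, SE 0.20, adjusted p = 0.272). It passed as lower at most 10000 UMIs (adjusted p = 0.0137), without barcodes holding macrophage or vascular UMIs (0.0282) and with Lyz2 at 0 (0.0340). The tags of CD335, CXCR4 and KLRG1 had 8, 2 and 3 counts over all barcodes, too few to read. The NK1.1 tag was higher in samples 5 and 6 than in 7 and 8 in every class, at 40.3, 40.4, 13.7 and 8.32 per CD8 T cell and 109.9, 137, 57.2 and 37.6 per NK cell in samples 5, 6, 7 and 8.

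**Figure D4:**
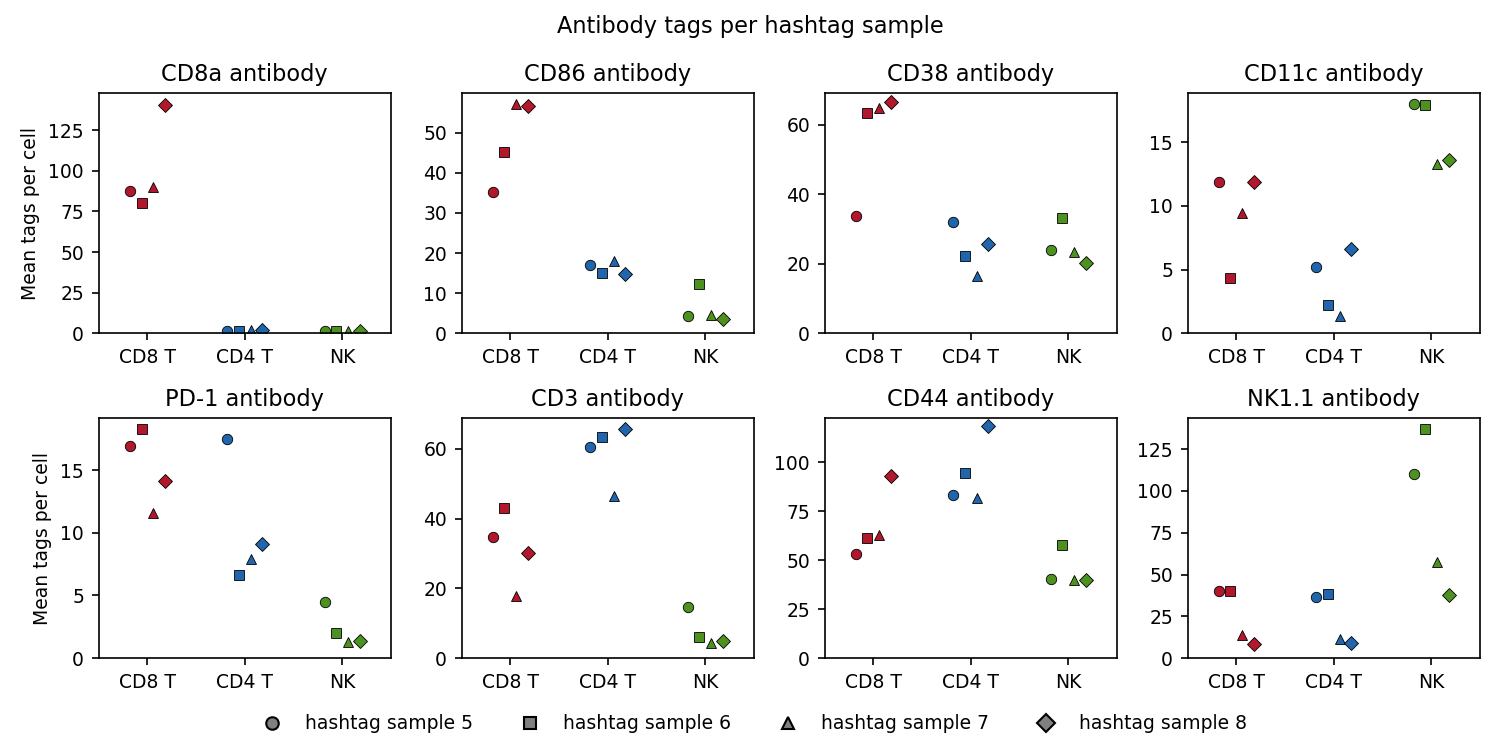
Mean antibody tags per cell in CD8 T, conventional CD4 T and NK cells, 1 point per hashtag sample (5 to 8), on linear axes that start at 0. CD86 tags are 35.1 to 57.1 per CD8 T cell and 14.7 to 18.1 per CD4 T cell, CD3 tags are lower in CD8 than in CD4 T cells, and PD-1 tags overlap between them.

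Against NK cells, the other cytotoxic lymphocytes of these brains, CD8 T cells held more inhibitory receptor and cell cycle transcripts and fewer of the granule genes. In samples 5 to 8, 660 of 6327 tested genes passed (10.4%), 324 higher (5.12%) and 336 lower (5.31%) in CD8 T cells. Of 15 inhibitory and exhaustion genes 10 were higher and 1 lower, with a median log2 fold change of 1.72, against -0.01 over all genes. Pdcd1 had 158, 403, 314 and 295 CPM in CD8 T cells of samples 5, 6, 7 and 8, against 0, 0, 4.03 and 9.31 CPM in NK cells (log2 fold change 6.09, SE 0.38, adjusted p = 2.61e-07). Havcr2 (log2 4.04), Lag3 (2.71), Ctla4 (2.25) and Tox (2.14) were higher too. Cxcr6, a receptor of resident and tumour-infiltrating T cells, had 177, 197, 267 and 489 CPM in CD8 T cells and 2.53, 13.2, 8.05 and 11.2 CPM in NK cells (log2 fold change 5.25, SE 0.28, adjusted p = 7.19e-08). No NK value reached the lowest CD8 value for either gene, as was so for 15.4% of all genes in one direction or the other.

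The granule genes divided between the 2 cytotoxic classes. Of 26 effector genes 5 were higher in CD8 T cells and 10 lower. Gzma had 492, 433, 900 and 924 CPM in CD8 T cells and 10181, 6372, 8182 and 11216 CPM in NK cells (log2 fold change -3.78, SE 0.19, adjusted p = 4.09e-08), and Gzmc 1.26, 2.32, 0 and 3.48 CPM in CD8 T cells and 224, 891, 70.5 and 452 CPM in NK cells (log2 fold change -7.44, SE 0.31, adjusted p = 6.33e-09). Prf1 was lower at log2 -2.04, and Gzmb had 839.7, 1084, 964 and 1818 CPM in CD8 T cells and 2681, 1669, 2074 and 2622 CPM in NK cells (adjusted p = 0.0016). Gzmk ran the other way, with 157, 442, 269.7 and 103 CPM in CD8 T cells and 8.85, 6.6, 10.1 and 9.31 CPM in NK cells (log2 fold change 4.35, SE 0.29, adjusted p = 3.54e-07). Dividing genes were higher in 13 of 20, receptor signalling genes in 11 of 14 and interferon response genes in 9 of 16, with none lower in these 3 lists. Ifi27l2a, lower in CD8 than in CD4 T cells, was at log2 4.43 over NK cells. Themis, a signalling protein of the T cell receptor pathway, had 304 UMIs in CD8 T cells and 0 in NK cells, at least 73.8-fold higher.

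Within the CD8 T cells, those positive for the effector programme held more chemokine transcripts and fewer naive ones than those negative for it. The comparison took 166 positive and 113 negative cells in samples 5 to 8, and left out the 4 programme genes. Of 3734 genes 121 passed (3.24%), of which 34 were higher (0.911%) and 87 lower (2.33%) in effector-positive cells. Cells positive and negative had median depths of 6188 and 5889 UMIs. Without the hashtag block 8 genes passed instead of 121. Of 24 passing genes followed by name, 6 kept their call in every setting, namely Ccl3, Ccl4, Lgals3, Dapl1, Ccr7 and Tcf7.

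Ccl3 had 2504, 939, 252 and 1430.4 CPM in effector-positive cells of samples 5, 6, 7 and 8, against 87.3, 53.7, 32 and 63.1 CPM in effector-negative cells (log2 fold change 4.34, SE 0.22, adjusted p = 6.83e-08). Ccl4 had 6239, 3462, 722 and 3744 CPM in effector-positive cells and 268, 134, 384 and 301 CPM in effector-negative cells (log2 fold change 3.40, SE 0.41, adjusted p = 0.000621). Within effector-positive cells sample 7 was again the low one. Lgals3 (galectin-3, a lectin of activated T cells and macrophages) had 415, 601, 773 and 490.1 CPM in effector-positive cells and 184, 255, 104 and 159.7 CPM in effector-negative cells (log2 fold change 1.55, SE 0.23, adjusted p = 0.00364). The transcription factor genes Prdm1 (Blimp-1, log2 2.72) and Id2 (1.12) and the chemokine receptor genes Cxcr6 (1.41) and Ccr2 (2.60) were higher. Ccr2 was the 1 of 12 trafficking genes that passed (median log2 0.29), and Cxcr6 and Rgs1 were the 2 of 5 tissue residency genes (median 0.36). Rgs1 missed the threshold without any 1 of samples 5 to 8, at adjusted p 0.0531 to 0.123. Without sample 5 the adjusted p was 0.0694 for Prdm1, 0.107 for Id2 and 0.0526 for Ccr2. Id2 also missed the threshold without sample 7 (0.0606) or 8 (0.217), and Ccr2 without sample 7 (0.0640). The 10 myeloid markers summed to 1279, 781, 4804 and 527 CPM in effector-positive cells of samples 5, 6, 7 and 8, against 3803, 416, 529 and 854 CPM in effector-negative cells, so they were higher on the positive side in samples 6 and 7. The gamma-delta T markers summed to 79.0, 28.1, 84.0 and 44.6 CPM in effector-positive cells, against 45.1, 0, 16.0 and 7.43 CPM in effector-negative cells. Sample 7 also had the widest gaps of Lgals3 and Ccr2, and the part of either marker list in the result was not tested.

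On the naive side, 6 of 12 tested genes were lower in effector-positive cells and none passed as higher, with a median log2 fold change of -1.11, against 0.01 over all genes. Tcf7 had 35.5, 16.9, 25.2 and 25.5 CPM in effector-positive cells and 196, 53.7, 168 and 145 CPM in effector-negative cells (log2 fold change -2.54, SE 0.28, adjusted p = 0.000268). Ccr7 had 75, 0, 0 and 12.7 CPM in effector-positive cells and 328, 26.9, 416 and 356 CPM in effector-negative cells (log2 fold change -3.82, SE 0.48, adjusted p = 0.000801). Dapl1, a marker transcript of naive CD8 T cells, had 3.95, 0, 0 and 14.3 CPM in effector-positive cells and 162, 13.4, 256 and 227 CPM in effector-negative cells (log2 fold change -4.59, SE 0.40, adjusted p = 3.52e-05). Sample 6, with 0 naive-positive cells, was lowest or tied at 0 for all 3 on both sides. Slamf6 (log2 -1.33) and Il7r (-1.04) were lower as well. Without sample 8 their adjusted p was 0.148 and 0.202, without sample 7 it was 0.0606 and 0.0656, and without sample 5 it was 0.0737 and 0.0613.

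Of 15 inhibitory and exhaustion genes, 3 were higher in effector-positive cells. These were Lgals3, Havcr2 at 94.8, 84.3, 92.4 and 149.6 CPM in effector-positive cells, against 12, 26.9, 24 and 44.6 CPM in effector-negative cells (log2 fold change 1.94, SE 0.32, adjusted p = 0.00529), and Rgs16 (log2 1.97). Without sample 8 the adjusted p of Havcr2 was 0.0634. Pdcd1 did not pass, with 169.8, 444, 344 and 315 CPM in effector-positive cells and 141, 336, 224 and 289.6 CPM in effector-negative cells (log2 fold change 0.23, SE 0.18, adjusted p = 0.721). Of 87 lower genes 61 were ribosomal protein genes, a family looked at after the values were seen. Of its 84 tested members 83 had a negative log2 fold change, with a median of -0.45. Many of these genes have near-identical copies in the genome, so their separate counts are uncertain.

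**Figure D5:**
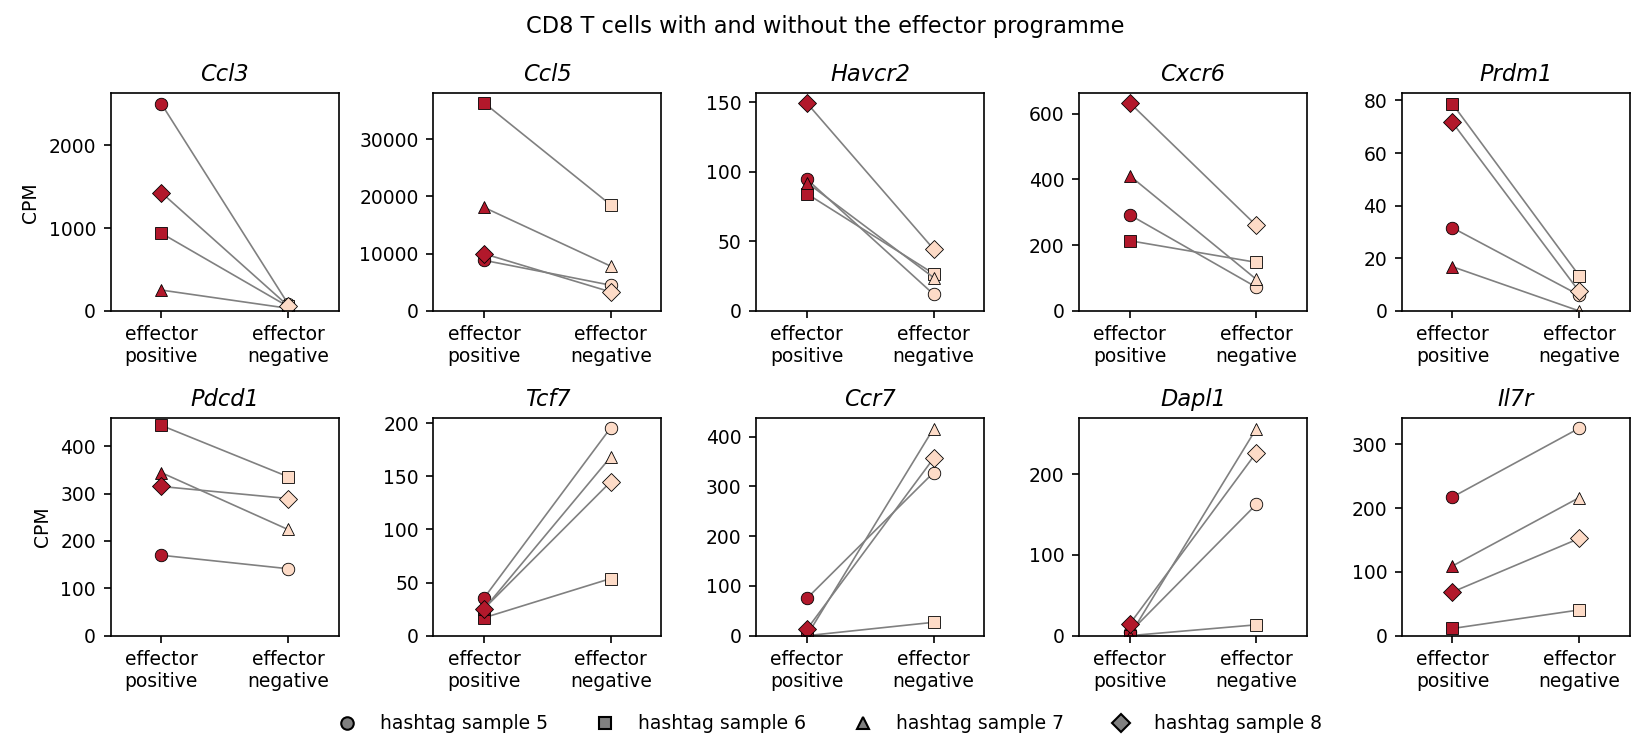
Summed levels (CPM) of 10 genes in effector-positive (left) and effector-negative (right) CD8 T cells, with lines joining the 2 values of each hashtag sample (5 to 8). Ccl3, Ccl5, Havcr2, Cxcr6 and Prdm1 are higher and Tcf7, Ccr7, Dapl1 and Il7r lower in effector-positive cells of every sample, while Pdcd1 did not pass the test.

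The exhausted programme was too rare for the planned limit of 10 cells on both sides, which 2 samples met, so it was compared at 5 cells in samples 5 to 8, a limit chosen after the cell numbers were seen. Of 2891 genes 8 were higher (0.277%) and 21 lower (0.726%) in exhausted-positive cells. Of 12 passing genes followed by name 11 lost the call in at least 1 setting, 0 genes passed without the hashtag block, and 4 passed without sample 8. Prf1 had 656, 213, 328 and 1317 CPM in exhausted-positive cells and 90.9, 126, 67.7 and 326 CPM in exhausted-negative cells (log2 fold change 1.97, SE 0.28, adjusted p = 0.00157), and its adjusted p was 0.118 without sample 8. Tnfrsf9 (4-1BB, a costimulatory receptor of recently activated T cells) had 456, 67.8, 191 and 427 CPM in exhausted-positive cells and 71.5, 29.7, 22.6 and 149 CPM in exhausted-negative cells (log2 fold change 1.96, SE 0.32, adjusted p = 0.00481), with 0.0749 without sample 8.

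Tox had 292, 494, 355 and 310.2 CPM in exhausted-positive cells and 61.9, 156, 90.2 and 183 CPM in exhausted-negative cells (log2 fold change 1.45, SE 0.28, adjusted p = 0.0136), with an adjusted p of 0.0713 and 0.0852 without samples 6 and 7. The positive cells were above the negative ones in all 4 samples for these 3 genes. Nr4a2 (log2 1.33), Cxcr6 (1.08), Nkg7 (0.68) and Nrgn (2.68) also passed. Nr4a2 did not pass without sample 5 (adjusted p = 0.122) or 8 (0.165), nor Cxcr6 without sample 5 (0.173), 7 (0.0773) or 8 (0.307). Nkg7 did not without sample 5 (0.104), 6 (0.0512) or 8 (0.168), and Nrgn was at log2 1.41 without sample 5 (0.373). In sample 7 Nrgn was lower in exhausted-positive cells, at 0 against 39.5 CPM. Areg was at log2 4.73, and at 1.00 with another thinning seed. Areg had 365, 0, 0 and 287 CPM in exhausted-positive cells of samples 5, 6, 7 and 8. In exhausted-negative cells it had 15.5, 7.43, 0 and 4.02 CPM. Itgb1, the integrin beta-1 chain, was lower, with 109, 203, 246 and 193 CPM in exhausted-positive cells and 460.2, 401, 423 and 487 CPM in exhausted-negative cells (log2 fold change -1.33, SE 0.25, adjusted p = 0.0127), as was the immediate early gene Fos at log2 -1.84. Both were lower in all 4 samples and missed the threshold without sample 8, at adjusted p 0.168 and 0.248, and Fos also with another thinning seed (0.292). Klra7 had 0 UMIs in exhausted-positive and 106 in exhausted-negative cells, at least 9.74-fold lower in exhausted-positive cells with 3 counts over the group as floor (adjusted p = 0.0142), and passed in all 3 other settings in which it was tested. Its exhausted-negative levels were 87.0, 0, 16.9 and 117 CPM in samples 5, 6, 7 and 8, so sample 6 held none on either side. Also among the lower genes, the macrophage genes C1qa and C1qb, the MHC class II genes Cd74 and H2-Aa and the smooth muscle genes Acta2 and Tagln had 42.6 to 89.8% of their exhausted-negative UMIs in 1 barcode each. The 10 myeloid markers summed to 437 CPM in exhausted-positive and 1501 CPM in exhausted-negative cells. Once barcodes holding macrophage or vascular UMIs were left out, 6 genes were higher and 3 lower.

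At the surface none of 30 tags passed in either programme comparison (0% in both), with 4 at an unadjusted p under 0.05 for the effector programme and 5 for the exhausted one. In effector-positive cells CD38 (log2 0.40), CD11c (1.46) and Ly6G (0.60) were the higher ones and CD45 (-0.15) the lower one. What gave these differences was not tested. In exhausted-positive cells PD-1, CD38 and CD86 were the higher ones, and CD64 (log2 -0.96) and CD49d (-0.78) the lower ones. The PD-1 tag, which is read apart from the Pdcd1 transcript, averaged 31.6, 18.3, 15.5 and 18.5 per exhausted-positive cell in samples 5, 6, 7 and 8, against 12.8, 18, 7.96 and 11.8 per exhausted-negative cell (log2 fold change 0.90, SE 0.35, adjusted p = 0.223). It was higher in exhausted-positive cells in 4 of 4 samples. The CD38 tag averaged 74.1, 69.8, 133 and 90.7 per exhausted-positive cell and 30.6, 73, 58.5 and 55.9 per exhausted-negative cell (log2 fold change 0.94, SE 0.35, adjusted p = 0.223). In sample 6 its mean was not higher in exhausted-positive cells. The CD86 tag had log2 fold change 0.93, SE 0.36, adjusted p = 0.223. Without sample 6 these 3 tags passed, at adjusted p 0.0453 for PD-1, 0.0319 for CD38 and 0.0453 for CD86.

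Naive-positive and dividing-positive CD8 T cells could not be tested, with 2 and 1 hashtag samples at 5 or more cells on both sides, and their levels are given over all cells. The 41 naive-positive cells, 24 of them from sample 5 and 10 from sample 8, held 355 CPM of Il7r, against 96.7 CPM in the 288 naive-negative cells. Klf2, a factor that keeps T cells quiescent and recirculating, was at 649 CPM in naive-positive and 195 CPM in naive-negative cells, and Satb1, a chromatin organiser of T cells, at 392 and 84.3 CPM in the same order. Klf2 differed mainly in sample 5, with 935 and 241 CPM in naive-positive cells of samples 5 and 8, against 204 and 204 CPM in naive-negative cells. Gzmb was at 128 CPM in naive-positive and 1608 CPM in naive-negative cells, and Pdcd1 at 64.1 CPM in naive-positive and 296 CPM in naive-negative cells. Their surface tags ran the same way: the median naive-positive cell held 5 PD-1, 16 CD38 and 13 CD86 tags, against 15, 44 and 33 in naive-negative cells.

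The 28 dividing-positive cells, 18 of them from sample 8, held high levels of cycle genes that the call did not use. Stmn1 was at 1596 CPM in dividing-positive cells, against 58.7 CPM in the 324 dividing-negative cells, and Pclaf at 907 CPM, against 22.9 CPM. Hmgb2, a chromatin protein of proliferating cells, was at 4353 CPM in dividing-positive and 576 CPM in dividing-negative cells. In sample 8, where both sides had 5 or more cells, Gzmb was at 1372 CPM in dividing-positive and 2022 CPM in dividing-negative cells, and over all cells the order was reversed, at 1490.2 and 1201 CPM.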

How the data were processed

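The deposited matrix holds raw UMI counts of transcripts, antibody tags and hashtags for called barcodes, whole numbers per the file headers. The submitters' processing notes name Cell Ranger 3.1, Seurat 3.1.1 and mm10, with no gene annotation named. Gene coordinates are from RefSeq on GRCm38.p6. The members and gene lists were chosen with earlier results of these data known. The mouse hashtag with most counts gave the sample, and no doublet caller was run.

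Conventional CD4 T cells met the mirrored gate (Cd4 at least 1, Cd8a and Cd8b1 at 0). NK cells held at least 2 of Ncr1, Klrb1c, Klre1 and Klra8, at most 1 of the 5 CD3 and receptor genes, and no Cd8a, Cd8b1, Cd4 or Foxp3. Within each hashtag sample the UMIs of a class were added up, leaving out gate genes, and fitted with edgeR 4.0.16 (R 4.3.3, quasi-likelihood test, TMM, filterByExpr, hashtag sample as block) in samples with at least 20 cells of both classes, or 10 for programmes. P-values were adjusted by Benjamini-Hochberg over all genes, or over the 30 tags, and the threshold was 0.05. CPM are these sums per 1e+06 gene UMIs. Programmes were called after thinning to 2000 UMIs, and 1 gene of the naive programme is not reported here. Ratios with 1 to 3 UMIs in a class carry a 95% counting interval, and the floor for 0 is 3 counts over the group. The code was tested on simulated data.

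Named genes are those of 13 lists and, outside them, the 10 with the largest fold change in each direction (6 for programmes) that passed with a mean of at least 20 CPM and 1 direction in every sample. Alternatives were DESeq2 1.42.0, RLE size factors, no filter, no block, each sample left out, other gate and cell limits, other thinning, and leaving out barcodes with at least 3 macrophage or vascular UMIs, the last chosen after seeing the data. Pairs come from cells of 1 hashtag sample. The correlation of paired libraries, after taking off class means, was -0.056 to -0.015 against CD4 T cells, -0.081 to 0.092 against NK cells, -0.061 to 0.251 for the effector and 0.0016 to 0.306 for the exhausted programme.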

Additional observations from a re-analysis of the deposited data

Results flagged for a closer look

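A value far from the other 3 of hashtag samples 5 to 8 was found in 7 of 97 sets of CD8 T cell values examined, where chance gives about 1 in 20. CD8a tags averaged 140.6 per cell in sample 8, against 79.9 to 89.8 in the others, and sample 8 also held the deepest CD8 T cells (median 7171 UMIs). CD38 tags averaged 33.7 per cell in sample 5, against 63.4 to 66.6 in the others. In sample 8 Rgs16 was high at 346 CPM, against 102 to 118 in the others, and Slamf6 low at 31.3 CPM, against 76.2 to 80.9. In sample 6 Isg15 was high at 748 CPM, against 449 to 495, and Ifi204 at 69.5 CPM, against 14.7 to 20.2. Ccr2 was high at 144 CPM in sample 7, against 81.0 to 82.6 in the others. Outside the main measurements, the 6 human hashtags, whose role no label gives, gave 396 counts in 143 CD8 T cells. The causes were not tested.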

How the results depend on the processing

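Of 1623 log2 fold changes of 142 named genes and tags under other settings, 1385 stayed called or stayed uncalled, 188 lost the call and 50 gained one. Direction was reversed in 0 of those called in either setting. Changes of direction were not counted where neither setting made a call. Against CD4 T cells the higher and lower counts were 228 and 157 with no filter on low counts (more genes tested), 128 and 163 without barcodes holding macrophage or vascular UMIs, 29 to 98 and 33 to 109 with 1 sample left out (lowest without sample 8, highest without sample 5), 42 higher with DESeq2, 116 lower with Lyz2 at 0 and 108 lower with no replicate block. Tags passing there, higher and lower, were 2 and 2 at most 10000 UMIs, 4 and 4 without those barcodes, 4 and 2 with Lyz2 at 0, 1 higher at 10 cells, and 0 to 3 and 0 to 1 with 1 sample left out (3 and 1 without sample 5). Against NK cells 529 were higher with no filter, and 198 to 386 higher and 207 to 426 lower with 1 sample left out (198 without sample 8, 207 without sample 5). In the effector comparison 65 were higher with no filter, and higher and lower counts were 4 and 4 with no replicate block, 77 and 154 at 20 cells, 9 and 41 thinned to 1000 UMIs, and 17 to 33 and 12 to 98 with 1 sample left out (17 higher without sample 5, 12 lower without sample 8). Its tags gave 4 higher with another thinning seed and 1 without those barcodes. In the exhausted comparison the counts were 0 and 0 with no replicate block, 3 and 10 with another seed, 3 lower without those barcodes, and 1 to 9 and 3 to 25 with 1 sample left out (1 and 3 without sample 8), and its tags 1 higher with another seed and 0 to 3 and 0 to 1 with 1 sample left out. The CD8 share was 17.7% in sample 6 with the hashtag limit at 90%, and 10.0% in sample 5 and 17.9% in sample 6 at most 10000 UMIs. Thinned to 1000 UMIs, the effector shares were 15.8, 22.1, 22 and 37.9% in samples 5 to 8, the naive shares 5.83% in sample 5 and 1.43% in sample 8, and the exhausted share 8.14% in sample 6. Unthinned, naive shares were 40.8, 4.65, 28 and 14.3% and exhausted shares 20.8, 52.3, 44 and 62.1% in samples 5 to 8, effector shares 49.2, 58.1 and 71.4% in samples 5, 6 and 8, and dividing shares 11.7 and 24.3% in samples 5 and 8. Where no construction is named, the cause was not tested. Depth limits genes with few UMIs in the CD4 T cells, which numbered 125.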
